A study of Mus musculus with 24 samples.

Results

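The genes described here are 10 brakes on proximal T cell receptor signalling in mouse CD4 T cells, followed through naive activation, TH1 differentiation and TH1 reactivation. They are Cd5, Cd6, Ptpn22, Ptpn6, Ubash3a, Sla, Sla2, Cblb, Dgka and Dgkz. The choice was by symbol and not by a measured value, but earlier results of these data were known when it was made. All 10 were among the 23420 gene symbols of the count files, and all 10 were among the 12584 genes with enough counts to be tested. The label is one of function: none of the measurements below tests whether the encoded proteins inhibited signalling in these cells.

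When the T cell receptor meets antigen, the kinase LCK phosphorylates the receptor chains, ZAP-70 is recruited and phosphorylates the adaptors LAT and SLP-76, and phospholipase C gamma then makes diacylglycerol and a calcium signal. Each of these steps has brakes that raise the amount of signal needed for activation and help to keep T cells tolerant of self. The surface receptors CD5 and CD6 gather inhibitory partners at the synapse, the phosphatases PTPN22 and SHP-1 (the product of Ptpn6) dephosphorylate kinases and adaptors, and UBASH3A (also called STS-2 or TULA) is a ubiquitin-binding relative of the ZAP-70 phosphatase UBASH3B. The adaptors SLAP and SLAP2, encoded by Sla and Sla2, work with CBL ubiquitin ligases to remove receptor chains, CBL-B ubiquitinates signalling proteins and is a guard of tolerance, and the diacylglycerol kinases DGK alpha and DGK zeta turn diacylglycerol into phosphatidic acid and so limit RAS signalling.

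Whole-number read counts per gene were analysed for 24 libraries in 4 groups of 6. Reactivated TH1 cells had been differentiated for 5 days and were then cultured for 6 hours with antigen-loaded macrophages, TH1 effector cells were differentiated for 5 days without that last step, activated naive cells had received a 6-hour stimulus that the labels do not name, and naive cells came from spleen without stimulation. All groups carried the genotype OT2Nur77GFP+/-: C57BL/6 mice with OT-II transgenes for a class II-restricted, ovalbumin-specific receptor and with Nr4a1 (Nur77) promoter sequences that drive GFP and Cre as a reporter of receptor signals. The cells were sorted before RNA was taken. No source used here gives the gates, the age of the mice or what a replicate number shares, and p-values therefore measure the spread between libraries, which may in part be technical.

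Each library held between 18457653 and 34262645 counts assigned to genes, and the smallest count behind any value of the 10 genes was 98 (Sla2 in an activated naive library). Sequencing took place in 2 runs that each held 3 libraries of every group. All 7 T cell markers checked (Cd3e, Cd3d, Cd3g, Cd4, Cd2, Thy1 and Zbtb7b) had a mean CPM (counts scaled to a common library total) above 1 in every group. Their summed level was 2691 to 3139 CPM in reactivated TH1 and 2642 to 2887 in TH1 effector libraries. It was 1594 to 2046 CPM in activated naive and 3667 to 4095 in naive libraries. Cd4 alone averaged 132 CPM in activated naive and 926 CPM in naive cells. The summed level of 14 macrophage markers was 12.2 to 18.1 CPM in reactivated TH1, 3.29 to 4.67 in TH1 effector, 9.99 to 12.04 in activated naive and 7.59 to 11.3 in naive libraries; Marco had no counts in any group and 11 of the 14 were under 1 CPM in reactivated TH1 cells. For 6 dendritic cell markers the sums were 7.09 to 10.6 CPM in reactivated TH1, 1.51 to 3.60 in TH1 effector, 0.833 to 1.91 in activated naive and 0.235 to 0.516 CPM in naive libraries, led by Zbtb46 except in naive cells, where Flt3 led, with Xcr1 at 0 in every group. The sums of 4 CD8 T cell and NK cell markers were 4.81 to 5.71 CPM in reactivated TH1, 4.21 to 6.42 in TH1 effector, 4.66 to 7.55 in activated naive and 23.2 to 30.8 CPM in naive libraries; Cd8b1 made up most of each, at a mean of 26.3 CPM in naive cells, where Cd8a averaged 0.840 CPM and Ncr1 was at 0. For 7 B cell markers the sum reached 22.9 CPM in 1 TH1 effector library, against a median of 6.30 in that group and at most 3.95 CPM in the others, and of the neutrophil markers Cxcr2 averaged 14.8 CPM in TH1 effector cells, where S100a8 and S100a9 had no counts. The part of these other cells in the results below was not tested.

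The promoters of the genes with the 2 steepest rises and the steepest fall after naive activation are shown first, because these genes moved in opposite directions in the same libraries. Each is the stretch from 250 to 31 bases before a RefSeq transcript start, written 5′ to 3′ on the gene's own strand in GRCm38.p6, the assembly of the RefSeq promoter table. Of the 10 symbols 8 matched an entry of that table, with 13 starts in all, and Cd6 and Sla did not. Capitals mark the letters of the motifs searched. These were GGAAA (the core bound by NFAT), TGANTCA (AP-1), AGGAAG (ETS), TGTTTAC (FOXO) and CACCC (KLF), each on both strands, and GGAAA and AGGAAG may share bases.
Cd5 (chr19:10739005-10739224, minus strand): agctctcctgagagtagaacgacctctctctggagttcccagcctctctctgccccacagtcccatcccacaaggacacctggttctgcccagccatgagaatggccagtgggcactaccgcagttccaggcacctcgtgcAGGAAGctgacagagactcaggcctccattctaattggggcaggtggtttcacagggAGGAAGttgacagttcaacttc
Ptpn22 (chr3:103859545-103859764, plus strand): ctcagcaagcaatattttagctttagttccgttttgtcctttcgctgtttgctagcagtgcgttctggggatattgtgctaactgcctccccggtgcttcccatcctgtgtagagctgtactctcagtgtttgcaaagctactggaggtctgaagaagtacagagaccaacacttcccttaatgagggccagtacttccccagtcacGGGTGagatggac
Sla2 (chr2:156887252-156887471, minus strand): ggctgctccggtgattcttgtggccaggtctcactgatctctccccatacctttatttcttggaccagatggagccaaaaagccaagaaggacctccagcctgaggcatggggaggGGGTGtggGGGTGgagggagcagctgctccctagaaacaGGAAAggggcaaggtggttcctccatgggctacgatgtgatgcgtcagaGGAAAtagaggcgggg

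The Cd5 window held AGGAAG at 109 and 52 bases before the start, the Ptpn22 window printed held CACCC on the other strand at 43 bases, and the Sla2 window held GGAAA at 95 and 46 bases and CACCC on the other strand at 134 and 126 bases. Ptpn22 has a second RefSeq start, whose window held AGGAAG at 94 bases and no CACCC. None of the 13 windows held the AP-1 or FOXO letters. Over the 13 windows GGAAA was present in 7, AGGAAG in 8 and CACCC in 4. Among all 32851 windows of the same length in the table, 51.3% held GGAAA, 26.1% AGGAAG, 47.8% CACCC, 6.12% TGANTCA and 2.81% TGTTTAC. These matches describe letters only. The first 30 transcribed bases at the RefSeq start of Sla2 were not found in a GENCODE transcript of the gene, whose annotated start lies 29 bases further in.

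After 6 hours of stimulation naive cells changed all 10 genes, and the set divided. Cd5, Cd6, Ptpn22, Sla, Cblb and Ptpn6 rose, while Sla2, Dgka, Ubash3a and Dgkz fell. Thus 10 of 10 genes passed the test (adjusted p under 0.05), against 81.9% of all genes tested, 6 of them higher (41.3% of all genes) and 4 lower (40.5%). A change of at least 2-fold was reached by 8 of 10 (44.5% of all genes), and the libraries of the groups did not overlap for any of the 10 (66.4% of all genes). The median log2 fold change of the 10 was 1.42, beside 0.00464 over all genes tested. The T cell marker sums and the CD8 and NK cell marker sums were lower in these activated libraries, as given above. As bulk RNA was measured, fewer cells that express a gene and less RNA per cell cannot be told apart here or below.

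Reactivated TH1 cells, set against TH1 effector cells, showed a narrower pattern in which 9 genes rose and Sla2 fell. Again 10 of 10 passed (79.7% of all genes), 9 higher (39.9%) and 1 lower (39.8%), but only Cd5, Cd6, Sla and Sla2 changed at least 2-fold (4 of 10, beside 32.8% of all genes). Libraries did not overlap for 6 of the 10 (59.4%), and the median log2 fold change was 0.54, beside -0.00227 over all genes tested. Macrophage and dendritic cell marker sums were also higher in these reactivated libraries, as given above. The calls of Ptpn6, Dgka and Dgkz in this comparison were lost under several other settings and are given with their values below.

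**Figure D1:**
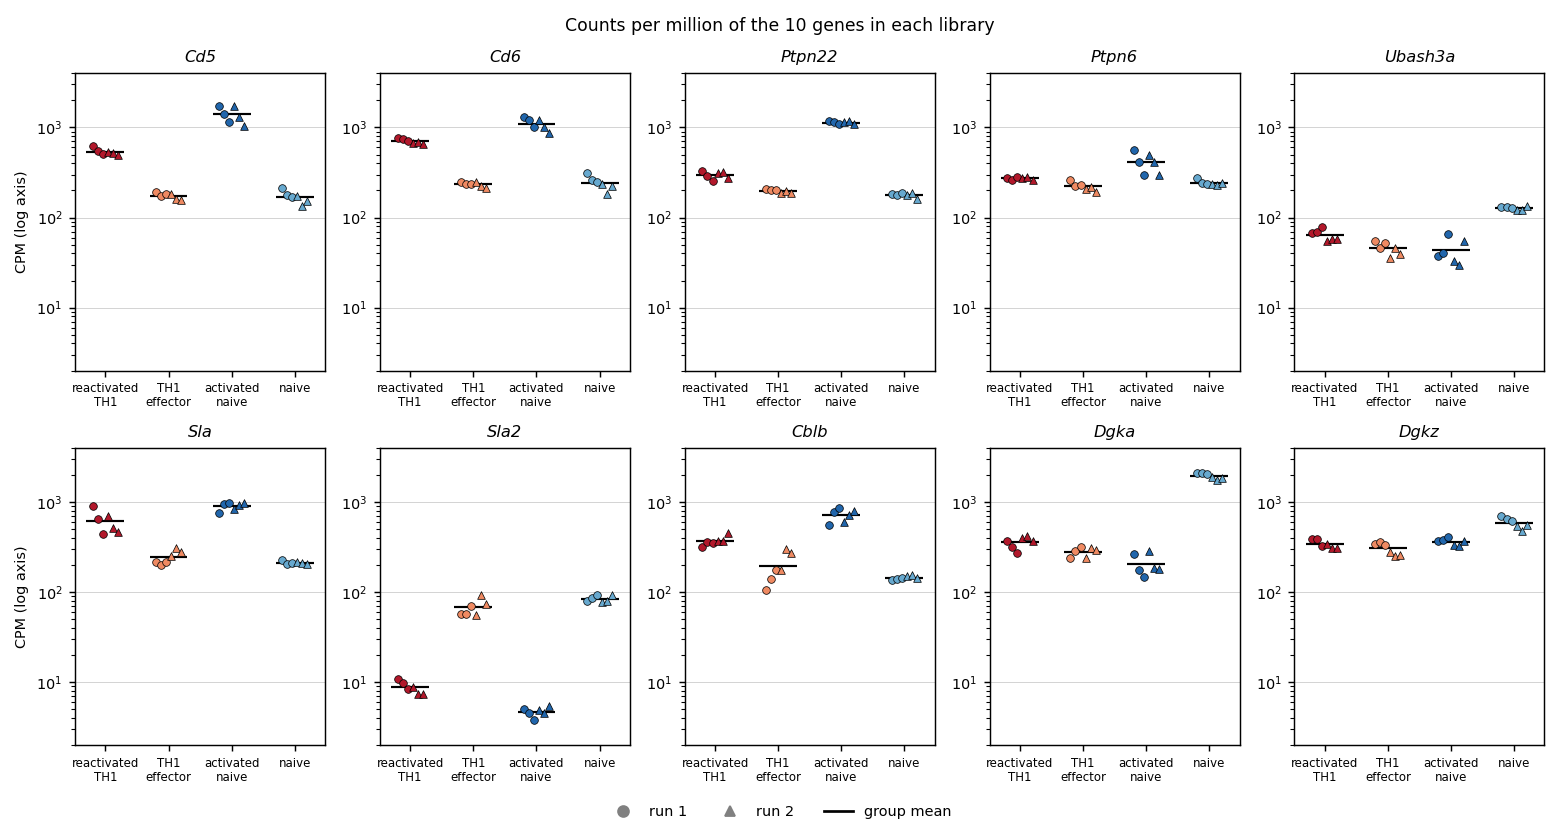
CPM of each gene (log axis) in the 6 libraries of each group; circles are libraries of run 1, triangles those of run 2, and lines are group means. The means of Cd5, Cd6, Ptpn22, Sla and Cblb are highest in activated naive cells, and for Sla those libraries overlap with reactivated TH1 libraries. Sla2 is at most 10.8 CPM in both stimulated groups, and Dgka is highest in naive libraries, with a mean of 1964 CPM.

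Cd5 and Cd6 encode related scavenger receptor proteins of the T cell surface and lie next to each other on the minus strand of chromosome 19, with 50338 bases between them (mm10, 10717116 to 10739002 for Cd5 and 10789341 to 10830058 for Cd6). Cd5 spanned 1046 to 1734 CPM in activated naive libraries (median 1360), against 133 to 211 CPM in naive libraries (median 170). It was 8.29-fold higher (log2 fold change 3.05, SE 0.15, adjusted p = 8.69e-19). Every activated library lay above every naive library. Within the activated naive group the libraries numbered 1 and 4, from different runs, were the highest at 1734 and 1726 CPM, and numbers 3 and 6 were among the lowest at 1153 and 1046 CPM. In TH1 cells Cd5 spanned 491 to 618 CPM after reactivation (median 522), against 157.7 to 190 CPM in TH1 effector libraries (median 178), a 3.06-fold rise (log2 fold change 1.61, SE 0.06, adjusted p = 3.41e-13) again without overlap.

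Cd6 followed the same course with less height in naive cells. It spanned 865 to 1293 CPM in activated naive libraries (median 1111), against 181 to 311 CPM in naive libraries (median 240.7), and was 4.52-fold higher (log2 fold change 2.18, SE 0.12, adjusted p = 2.93e-18). After TH1 reactivation it spanned 654 to 764 CPM (median 692), against 215 to 250 CPM in TH1 effector libraries (median 236.04), a 2.99-fold rise (log2 fold change 1.58, SE 0.04, adjusted p = 4.56e-15). In neither response did the libraries of the groups overlap. Both receptor genes had resting levels in TH1 effector and naive cells that were not distinguishable: Cd5 averaged 175 ± 13.5 CPM in TH1 effector and 169 ± 25.8 CPM in naive cells (SD, n = 6 each; adjusted p = 0.651), and Cd6 averaged 234.5 ± 13.1 and 244 ± 42.9 CPM in TH1 effector and naive cells (adjusted p = 0.596). The sign of these small differences changed when libraries were left out, so no direction is given.

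The phosphatase genes differed widely in their response. Ptpn22 (chromosome 3, 103859795 to 103912247, plus strand), which encodes a phosphatase of LCK and ZAP-70, was the most uniform riser: it spanned 1082 to 1173 CPM in activated naive libraries (median 1141), against 161.8 to 187 CPM in naive libraries (median 182). The rise was 6.30-fold (log2 fold change 2.65, SE 0.04, adjusted p = 2.17e-23), with a wide gap between the groups. TH1 reactivation moved it far less, to 255 to 325 CPM (median 302) in reactivated TH1 libraries, against 189 to 207 CPM in TH1 effector libraries (median 199). This was a 1.502-fold rise (log2 fold change 0.59, SE 0.06, adjusted p = 2.64e-10), still without overlap.

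Ptpn6 (chromosome 6, 124720707 to 124738714, minus strand), the gene of SHP-1, was the least changed phosphatase gene. It spanned 299 to 565 CPM in activated naive libraries (median 409), against 231 to 278 CPM in naive libraries (median 240), and was 1.69-fold higher (log2 fold change 0.75, SE 0.17, adjusted p = 9.88e-07). The groups did not overlap, but the activated libraries spread widely, with numbers 1 and 4 at 565 and 493 CPM and numbers 3 and 6 at 299 and 300.5 CPM. In TH1 cells it spanned 259 to 281 CPM after reactivation (median 275), against 190 to 264 CPM in TH1 effector libraries (median 222), with overlap, and the 1.23-fold difference passed narrowly (log2 fold change 0.30, SE 0.05, adjusted p = 0.0167). That call was lost with the DESeq2 Wald test (adjusted p = 0.0505), with RLE factors (0.0553), with scaling by library size alone (0.128), in run 1 alone (0.427), without the libraries numbered 4 (0.0565) or 5 (0.0554), and without both 5 and 6 (0.172). Ptpn6 shares 195 exon bases with the antisense gene Gm20531, which was not analysed here.

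Ubash3a (chromosome 17, 31207873 to 31246892, plus strand) was highest in resting naive cells. It spanned 29.5 to 65.1 CPM in activated naive libraries (median 38.8), against 120 to 133 CPM in naive libraries (median 129), and fell 2.94-fold (log2 fold change -1.56, SE 0.19, adjusted p = 7.52e-11) without overlap. In TH1 cells it moved the other way, spanning 54.5 to 78.2 CPM after reactivation (median 62.7) and 35.8 to 54.5 CPM in TH1 effector libraries (median 45.7), a 1.41-fold rise (log2 fold change 0.49, SE 0.07, adjusted p = 0.00131) with a slight overlap of the ranges. Its relative Ubash3b, whose product dephosphorylates ZAP-70, rose in both settings: it averaged 310 ± 38.4 CPM in activated naive and 26.8 ± 2.06 CPM in naive cells, and 165.4 ± 29.0 CPM in reactivated TH1 and 26.6 ± 2.996 CPM in TH1 effector cells (SD, n = 6 each). Its log2 fold changes were 3.53 in naive and 2.63 in TH1 cells (adjusted p = 6.68e-23 and 7.42e-20).

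The adaptor genes Sla and Sla2 moved in opposite directions in both responses. Sla (chromosome 15, 66780819 to 66831829, minus strand) spanned 754 to 987 CPM in activated naive libraries (median 935), against 203 to 230 CPM in naive libraries (median 211). It was 4.25-fold higher (log2 fold change 2.09, SE 0.07, adjusted p = 3.92e-12) with no overlap. After TH1 reactivation it spanned 437 to 906 CPM (median 585), against 198 to 309 CPM in TH1 effector libraries (median 233.8), a 2.51-fold rise (log2 fold change 1.33, SE 0.18, adjusted p = 1.33e-08). Reactivated libraries numbered 1 and 4 were the highest at 906 and 705 CPM, and number 3 the lowest at 437 CPM, which still lay above every TH1 effector library. Sla lies within the thyroglobulin gene Tg, which is on the other strand and shares no exon bases with it; Tg averaged 13.3 CPM in reactivated TH1, 25.7 in TH1 effector, 7.21 in activated naive and 0.191 CPM in naive cells.

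Sla2 (chromosome 2, 156872457 to 156887192, minus strand), which encodes SLAP2, showed the steepest fall of the 10 genes in each response. It spanned 3.83 to 5.39 CPM in activated naive libraries (median 4.79), against 77.9 to 93.9 CPM in naive libraries (median 82.5), and was 17.9-fold lower (log2 fold change -4.16, SE 0.09, adjusted p = 3.99e-20). Its log2 fold change ranked 309 from the lowest of the 12584 genes in that comparison. In TH1 cells Sla2 spanned 7.40 to 10.8 CPM after reactivation (median 8.60), against 56.5 to 92.2 CPM in TH1 effector libraries (median 63.9), a 7.68-fold fall (log2 fold change -2.94, SE 0.13, adjusted p = 4.14e-17). In both cases the groups stood far apart. At its 3′ end it shares 731 exon bases with Rab5if on the other strand (listed in the count files under its older symbol 1110008F13Rik), which averaged 85.7 CPM in reactivated TH1, 72.0 in TH1 effector, 58.7 in activated naive and 37.6 CPM in naive cells. The strand setting of the counting is not given, so the Sla2 values are uncertain to that extent.

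Cblb (chromosome 16, 52031225 to 52208048, plus strand), the gene of the ubiquitin ligase CBL-B, rose with stimulation in both cell types. It spanned 557 to 863 CPM in activated naive libraries (median 751), against 138 to 156 CPM in naive libraries (median 145), and was 4.98-fold higher (log2 fold change 2.32, SE 0.11, adjusted p = 1.32e-11). In TH1 cells it spanned 321 to 450 CPM after reactivation (median 362), against 105 to 303 CPM in TH1 effector libraries (median 175), a 1.94-fold rise (log2 fold change 0.96, SE 0.17, adjusted p = 1.36e-05). The libraries overlapped in neither response. TH1 effector libraries were the least uniform for this gene, averaging 139 CPM in run 1 and 249.6 CPM in run 2.

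The diacylglycerol kinase genes led the 10 per kilobase in resting naive cells, with 412 ± 31.5 RPKM for Dgka and 94.0 ± 12.9 RPKM for Dgkz (CPM per kilobase of exon, SD, n = 6), the second within the spread of Ptpn6 (87.3 ± 6.05 RPKM). Dgka (chromosome 10, 128720134 to 128744855, minus strand) spanned 149 to 285 CPM in activated naive libraries (median 184), against 1752 to 2125 CPM in naive libraries (median 1987), and fell 9.49-fold (log2 fold change -3.25, SE 0.16, adjusted p = 2.57e-16). No libraries overlapped. In TH1 cells it spanned 270 to 418 CPM after reactivation (median 373), against 242.05 to 314 CPM in TH1 effector libraries (median 288); the groups overlapped and the 1.27-fold difference passed narrowly (log2 fold change 0.35, SE 0.10, adjusted p = 0.0191). That call was lost with library size scaling (adjusted p = 0.109), in run 1 alone (0.469), without number 1 (0.057), 4 (0.0654) or 5 (0.0502), and without both 5 and 6 (0.152). At its 3′ end Dgka shares 105 exon bases with Pmel on the other strand, which averaged at most 0.881 CPM in any group.

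Dgkz (chromosome 2, 91932824 to 91975864, minus strand) spanned 328 to 411 CPM in activated naive libraries (median 368), against 483 to 705 CPM in naive libraries (median 581), a 1.61-fold fall (log2 fold change -0.68, SE 0.05, adjusted p = 4.95e-11) without overlap. It spanned 311 to 394 CPM in reactivated TH1 libraries (median 335), against 251 to 359 CPM in TH1 effector libraries (median 310), and these ranges overlapped. The TH1 difference was 1.14-fold (log2 fold change 0.19, SE 0.05, adjusted p = 0.0056). It did not pass with the DESeq2 Wald test (adjusted p = 0.0579), RLE factors (0.0603), library size scaling (0.34), without the run term (0.0987), in run 1 alone (0.53) or without both number 5 and number 6 (0.12). Dgkz shares 222 exon bases with Gm9821 on the other strand, which was not analysed here. The diacylglycerol kinase genes outside the 10 moved in both directions: Dgkh rose in activated naive cells (log2 fold change 2.60, adjusted p = 2.2e-17), and Dgke, Dgkq and Dgkd fell, with log2 fold changes of -0.996, -0.60 and -0.60.

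TH1 differentiation was followed in TH1 effector against naive cells, and here the 10 genes divided by size. Dgka and Ubash3a were at least 2-fold lower, Dgkz was lower by somewhat less, and the remaining differences were small. In all 6 of 10 genes passed the test (84.9% of all genes), 2 higher (44.6%) and 4 lower (40.3%), and 2 of 10 reached 2-fold (41.6%). Libraries did not overlap for 4 of 10 (69.0%). The median log2 fold change was -0.10, beside 0.06 over all genes. The T cell marker sums and the CD8 and NK cell marker sums were lower in TH1 effector libraries too, as given above.

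Dgka averaged 281 ± 31.6 CPM in TH1 effector and 1964 ± 149.9 CPM in naive cells (SD, n = 6 each), 7.005-fold lower (log2 fold change -2.81, SE 0.08, adjusted p = 4.32e-15). Ubash3a averaged 45.6 ± 7.27 CPM in TH1 effector and 127 ± 5.57 CPM in naive cells, 2.81-fold lower (log2 fold change -1.49, SE 0.07, adjusted p = 1.73e-10). Dgkz averaged 306 ± 47.7 CPM in TH1 effector and 589 ± 80.8 CPM in naive cells, 1.93-fold lower (log2 fold change -0.95, SE 0.05, adjusted p = 7.49e-14). For these 3 genes no TH1 effector library reached a naive library. Sla2 was lower by a smaller step, with 67.9 ± 14.3 CPM in TH1 effector and 84.8 ± 6.95 CPM in naive cells (log2 fold change -0.32, SE 0.13, adjusted p = 0.0089); the libraries overlapped and the call was lost in run 2 alone (0.301).

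The small rises of Ptpn22 and Cblb in TH1 effector cells rested on the settings. Ptpn22 averaged 198 ± 7.65 CPM in TH1 effector and 179.7 ± 9.33 CPM in naive cells (SD, n = 6 each; log2 fold change 0.14, SE 0.03, adjusted p = 0.0209). Its call was lost with library size scaling (0.0598), without a filter on low counts (0.164), in run 2 alone (0.158), without number 2 (0.0622), 4 (0.119) or 6 (0.0534), and without both 5 and 6 (0.236). Cblb averaged 195 ± 76.9 CPM in TH1 effector and 146 ± 7.13 CPM in naive cells (log2 fold change 0.38, SE 0.16, adjusted p = 0.0334). In run 1 alone its log2 fold change was 0.02 (adjusted p = 0.916), and without both number 5 and number 6 it was -8.75e-05. Its call was also lost with library size scaling (0.0535), without the filter (0.0761), with a fit of these groups only (0.077), and without number 3 (0.0523), 4 (0.0636), 5 (0.18) or 6 (0.171). Ptpn6 and Sla did not pass (adjusted p = 0.227 and 0.188); with a fit of these groups only they did (0.0311 and 0.0389), and Sla passed in run 2 alone (log2 fold change 0.42, adjusted p = 0.00916) but had a log2 fold change of -0.00926 in run 1 alone.

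**Figure D2:**
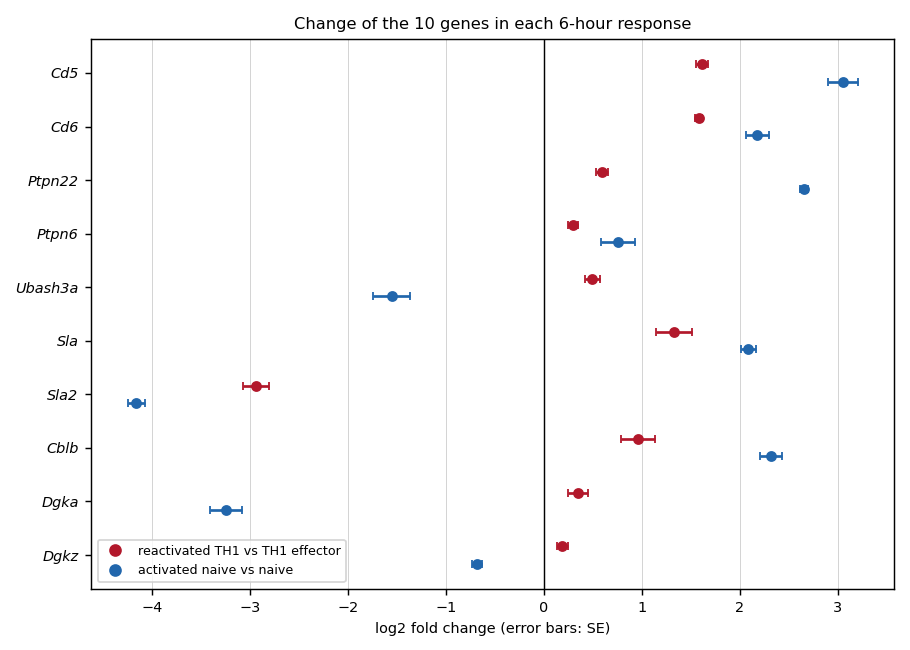
Log2 fold change of each of the 10 genes in reactivated TH1 against TH1 effector cells (red, upper point of each row) and in activated naive against naive cells (blue, lower point), with SE bars from 6 libraries a group. In 6 rows both points lie above 0, for Sla2 both lie below 0, and for Ubash3a, Dgka and Dgkz they lie on opposite sides, the TH1 points of Dgka and Dgkz being only 0.35 and 0.19 above 0.

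Whether the 2 responses differed was tested directly, as the TH1 response minus the naive response. All 10 genes passed (10 of 10, beside 68.0% of all genes), 4 higher (34.3%) and 6 lower (33.7%), and 6 of 10 reached 2-fold (30.3%). Dgka differed most, by 3.59 on the log2 scale (SE 0.19, adjusted p = 6.68e-14), followed by Ptpn22 at -2.07 (SE 0.07, adjusted p = 1.61e-17) and Ubash3a at 2.05 (SE 0.20, adjusted p = 7.08e-10). Starting levels of these genes differed as well: in TH1 effector against naive cells the log2 fold changes were -2.81 for Dgka, 0.14 for Ptpn22 and -1.49 for Ubash3a. Cd5 differed by -1.44, Cblb by -1.36, Sla2 by 1.22, Dgkz by 0.87, Sla by -0.76, Cd6 by -0.60 and Ptpn6 by -0.45. In each of the 10 genes the absolute log2 change was smaller in TH1 cells. The share of all genes with a smaller change was not counted. Over all genes, calls of at least 2-fold were also fewer in TH1 reactivation (32.8%) than in naive activation (44.5%).

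Some of these differences were less firm than others. Ptpn6 passed in neither run alone (adjusted p = 0.0598 in run 1 and 0.129 in run 2), and Sla did not pass in run 1 alone (0.256) or without both number 5 and number 6 (0.136). A list of 11 activation readouts held genes that T cell receptor signals are known to induce. All 11 rose in activated naive cells (41.3% of all genes), with a median log2 fold change of 6.34. In reactivated TH1 cells 9 rose (39.9% of all genes), Il2ra fell and Egr1 did not pass, with a median of 1.47. All 11 had a smaller response in TH1 cells by the test of the difference (33.7% of all genes). The starting levels differed: in TH1 effector against naive cells 6 of the 11 were higher and 2 lower. Tnfrsf9, Il2ra and Irf4 were higher there by 8.18, 7.44 and 6.69 on the log2 scale. In reactivated TH1 against activated naive cells 10 of the 11 were lower and 1, Tnfrsf9, was higher (1613 and 552 CPM). The labels do not name the stimulus of the naive cells, and the part of the stimulus, of the macrophages and of the cell state in the smaller changes of the 10 genes cannot be told apart in this design.

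Reactivated TH1 cells, set against activated naive cells at the same 6 hours, held less Ptpn22, Cd5, Cblb, Cd6, Ptpn6 and Sla RNA and more Sla2, Dgka and Ubash3a RNA. In this comparison 9 of 10 genes passed (79.8% of all genes), 6 lower (36.4%) and 3 higher (43.4%), 2 of 10 at least 2-fold (34.1%), and libraries did not overlap for 6 of 10 (60.2%). Ptpn22 averaged 297 ± 27.5 CPM in reactivated TH1 and 1131 ± 39.9 CPM in activated naive cells (SD, n = 6 each), 3.81-fold lower (log2 fold change -1.93, SE 0.06, adjusted p = 2.28e-20). Cd5 averaged 534 ± 45.2 CPM in reactivated TH1 and 1396 ± 288 CPM in activated naive cells, 2.62-fold lower (log2 fold change -1.39, SE 0.14, adjusted p = 5.63e-12). Cblb, Cd6, Ptpn6 and Sla had log2 fold changes of -0.97, -0.65, -0.60 and -0.56 (adjusted p = 1.03e-05, 8.38e-08, 2.8e-05 and 0.000982), and for Sla the libraries overlapped and the call was lost in run 1 alone (0.0894).

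The genes that were higher in reactivated TH1 than in activated naive cells were Sla2, Dgka and Ubash3a. Sla2 averaged 8.79 ± 1.37 CPM in reactivated TH1 and 4.74 ± 0.548 CPM in activated naive cells (SD, n = 6 each; log2 fold change 0.90, SE 0.10, adjusted p = 5.83e-07). Dgka averaged 358 ± 55.4 CPM in reactivated TH1 and 208 ± 54.5 CPM in activated naive cells (log2 fold change 0.78, SE 0.18, adjusted p = 8.91e-06). Ubash3a averaged 64.2 ± 9.01 CPM in reactivated TH1 and 43.5 ± 13.9 CPM in activated naive cells (log2 fold change 0.56, SE 0.19, adjusted p = 0.000387). Libraries overlapped for Dgka and Ubash3a and not for Sla2, and Dgkz did not pass (346 ± 36.4 CPM in reactivated TH1 and 365 ± 30.4 CPM in activated naive cells, adjusted p = 0.208).

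The remaining contrasts place each gene across the 4 groups. In TH1 effector against activated naive cells 9 of 10 genes passed (86.9% of all genes), 7 lower (41.2%) and 2 higher (45.6%), and Ubash3a did not pass (adjusted p = 0.63). The differences of Dgka (log2 fold change 0.44, adjusted p = 0.00354) and Dgkz (log2 fold change -0.27, adjusted p = 0.000166) were the smallest of the 9 in that contrast, and that of Dgkz was lost in run 1 alone (0.196). That of Dgka was lost in run 2 alone (adjusted p = 0.0518) and without both number 5 and number 6 (0.128). In reactivated TH1 against naive cells 9 of 10 passed (87.6% of all genes), 5 higher (47.9%) and 4 lower (39.8%), and Ptpn6 did not (adjusted p = 0.19). By mean level, Cd5, Cd6, Ptpn22, Sla and Cblb were highest in activated naive and next in reactivated TH1 cells. The order of TH1 effector and naive cells was not separated for Cd5, Cd6 and Sla. Ptpn6 was highest in activated naive cells, and its neighbours among the other 3 groups were not separated except reactivated TH1 from TH1 effector cells. Ubash3a, Sla2, Dgka and Dgkz were highest in naive cells; activated naive cells were lowest for Sla2 and Dgka, the order of TH1 effector and activated naive cells was not separated for Ubash3a, and that of activated naive and reactivated TH1 cells was not separated for Dgkz.

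**Figure D3:**
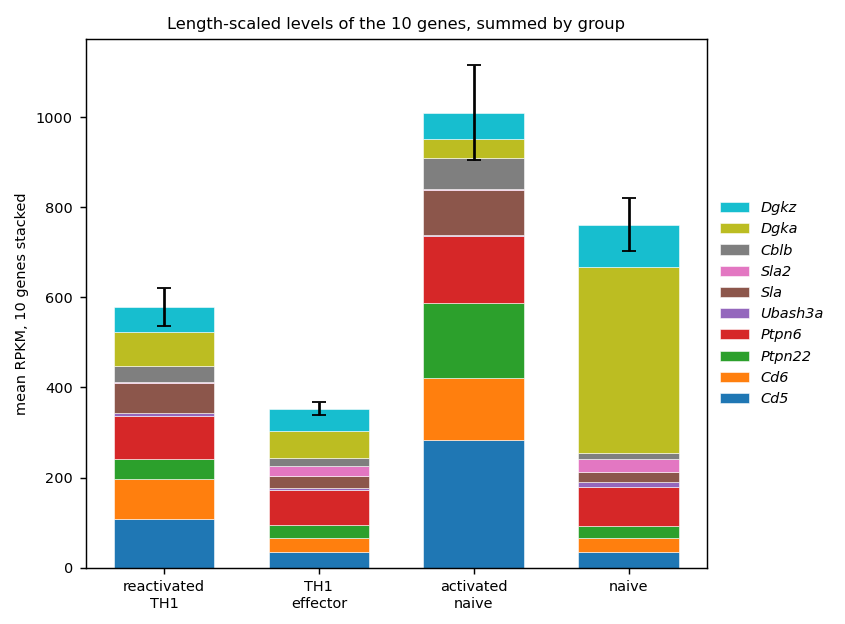
Mean RPKM (CPM per kilobase of merged exons) of the 10 genes, stacked, in each group of 6 libraries; error bars are the SD of the summed RPKM per library. The naive bar is mostly Dgka, the activated naive bar is led by Cd5, Ptpn22 and Ptpn6, and the TH1 effector bar is the lowest, at 352 RPKM.

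Levels were compared between genes per length, as RPKM over merged GENCODE exons. The 10 genes together gave 578 ± 41.4 RPKM in reactivated TH1, 352 ± 14.5 in TH1 effector, 1010.0 ± 106 in activated naive and 761 ± 58.9 RPKM in naive cells (SD, n = 6 each). Dgka held 13.0% of that sum in reactivated TH1, 16.7% in TH1 effector, 4.27% in activated naive and 54.2% in naive cells (53.0 to 55.0 over naive libraries). Cd5 held 27.8% in activated naive cells (24.3 to 31.5) and 4.49% in naive cells. The leading gene by RPKM was Cd5 in reactivated TH1 (108 ± 9.17), Ptpn6 in TH1 effector (79.2 ± 8.91), Cd5 in activated naive (283 ± 58.4) and Dgka in naive cells (412 ± 31.5). Ubash3a was the lowest by RPKM in TH1 effector and naive cells and Sla2 in both stimulated groups. This order depends on the merged exon lengths, 11239 bases for Ubash3a and 3099 for Sla2. By CPM Ubash3a was above Sla2 in naive cells (127 and 84.8) and below it in TH1 effector cells (45.6 and 67.9).

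Ratios of paired genes within a library do not depend on how libraries are scaled. They were compared as log2 ratios of counts, with 0.5 counts added, by exact permutation within run (two-sided, 400 permutations, smallest possible p = 0.005, adjusted over 24 tests). The Sla to Sla2 ratio averaged 7.57 ± 0.276 in activated naive and 1.33 ± 0.163 in naive cells, a difference of 6.24, and 6.09 ± 0.254 in reactivated TH1 and 1.86 ± 0.192 in TH1 effector cells, a difference of 4.23 (SD, n = 6 each; exact adjusted p = 0.00571 for both). The Ubash3a to Ubash3b ratio averaged -2.88 ± 0.393 in activated naive and 2.25 ± 0.103 in naive cells, and -1.36 ± 0.195 in reactivated TH1 and 0.77 ± 0.259 in TH1 effector cells, with differences of -5.13 and -2.12 (exact adjusted p = 0.00571 for both). The ratio was below 0 in every stimulated library and above 0 in every resting library.

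The Dgka to Dgkz ratio averaged -0.85 ± 0.443 in activated naive and 1.74 ± 0.0983 in naive cells, a difference of -2.60, and it was lower in TH1 effector than in naive cells too, at -0.12 ± 0.309 (difference -1.86; exact adjusted p = 0.00571 for both). Reactivation of TH1 cells gave a difference of 0.16, which did not pass (exact permutation, adjusted p = 0.172). The Cblb to Cbl ratio averaged 2.26 ± 0.321 in activated naive and -1.06 ± 0.0416 in naive cells, and 1.69 ± 0.135 in reactivated TH1 and 0.36 ± 0.495 in TH1 effector cells, with differences of 3.32 and 1.34 (exact adjusted p = 0.00571 for both). Cbl itself, the gene of the related ligase c-CBL, fell by 1.03 in activated naive and by 0.32 in reactivated TH1 cells on the log2 scale (adjusted p = 2.18e-13 and 0.000129). Ptpn22 shifted against Csk, the gene of the kinase that inactivates LCK, by 3.29 in naive and 1.01 in TH1 cells (exact permutation, adjusted p = 0.00571 for both).

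Cd5 and Cd6 shifted against each other in naive activation and not detectably in TH1 reactivation. Their ratio averaged 0.33 ± 0.118 in activated naive and -0.52 ± 0.0551 in naive cells, a difference of 0.86 (SD, n = 6 each; exact permutation, adjusted p = 0.00571). In reactivated TH1 cells it was -0.40 ± 0.0656 and in TH1 effector cells -0.43 ± 0.0443, a difference of 0.03 (exact permutation, adjusted p = 0.35). TH1 effector and naive cells differed by 0.10 (exact permutation, adjusted p = 0.0273), which did not pass without number 1, 2, 3 or 6. In all, 22 of 24 ratio tests passed.

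**Figure D4:**
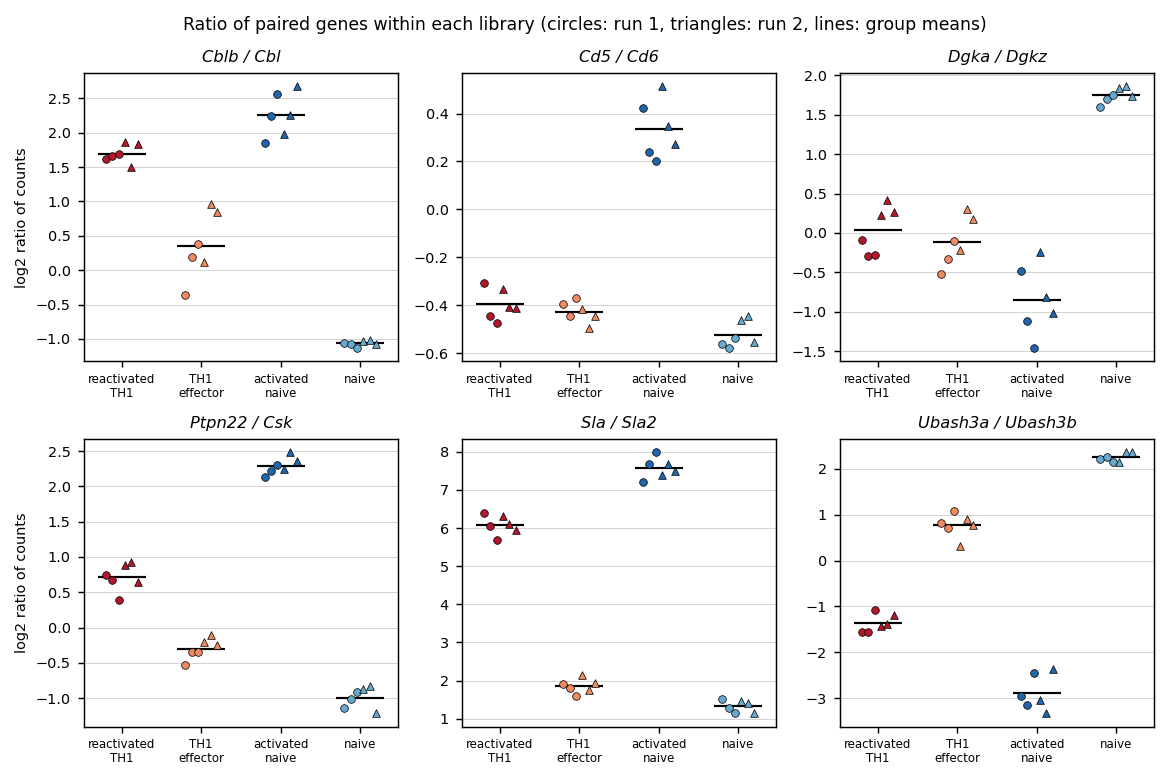
Log2 ratio of counts of 6 gene pairs in each library (circles run 1, triangles run 2), with group means as lines; each panel has its own scale. The stimulated groups stand apart from the resting groups for Sla against Sla2, Cblb against Cbl, Ubash3a against Ubash3b and Ptpn22 against Csk, while for Cd5 against Cd6 only activated naive libraries lie above 0.

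The machinery that these genes oppose was examined in the same libraries. Of 23 receptor and proximal activating genes, 6 rose (41.3% of all genes) and 13 fell (40.5%) in activated naive cells. Their median log2 fold change was -0.29, beside 0.00464 over all genes tested. In reactivated TH1 cells 11 rose (39.9% of all genes) and 8 fell (39.8%). The median there was 0.15, beside -0.00227 over all genes tested. In activated naive cells Lcp2 (the gene of SLP-76), Zap70 and Fyn rose by 2.06, 1.96 and 1.77 on the log2 scale, and Themis and Grap2 (GADS) fell, with log2 fold changes of -3.84 and -3.49. In reactivated TH1 cells Tespa1, Lcp2 and Lat rose by 1.62, 1.46 and 1.23, and Grap2, Rasgrp1 (an activator of RAS that responds to diacylglycerol) and Themis fell, with log2 fold changes of -2.45, -2.17 and -1.98. In TH1 effector against naive cells 20 of the 23 were lower (40.3% of all genes) and 2 higher (44.6%). The median there was -0.95, beside 0.06 over all genes tested.

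Other negative regulators moved in both directions. Beside the lists that follow, 41.3% of all genes tested rose and 40.5% fell in activated naive cells (median log2 fold change 0.00464). In reactivated TH1 cells 39.9% of all genes rose and 39.8% fell (median -0.00227). Of 16 other phosphatases and inhibitory adaptors, 9 rose and 6 fell in activated naive cells (median log2 fold change 0.65), led by Ubash3b, Sh2b3 and Dusp22 upward (3.53, 2.36 and 1.66) and by Sit1, Dok2 and Pag1 downward (-3.84, -1.63 and -1.42). In reactivated TH1 cells 6 rose and 7 fell (median 0.08), with Ubash3b, Sh2b3 and Ptprj at 2.63, 2.22 and 1.16 and Sit1, Dusp22 and Dok2 at -2.37, -1.16 and -1.14. Of 7 genes of other ubiquitin ligases and their adaptors, Ndfip1 alone rose in activated naive cells (log2 fold change 2.94) and 5 fell, led by Nedd4 (-3.53), whereas 4 rose and 3 fell in reactivated TH1 cells. Of 7 inhibitory receptors 5 rose in each response, led by Pdcd1 (PD-1) in naive cells (log2 fold change 7.25) and Cd160 in TH1 cells (6.75), while Ctla4 rose in activated naive cells (2.12) and fell in reactivated TH1 cells (-2.70). Of 6 genes made up of Foxo1 and its known targets in resting T cells, 5 fell and 0 rose in each response, and Ccr7 did not pass (adjusted p = 0.782 in naive and 0.233 in TH1 cells).

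**Figure D5:**
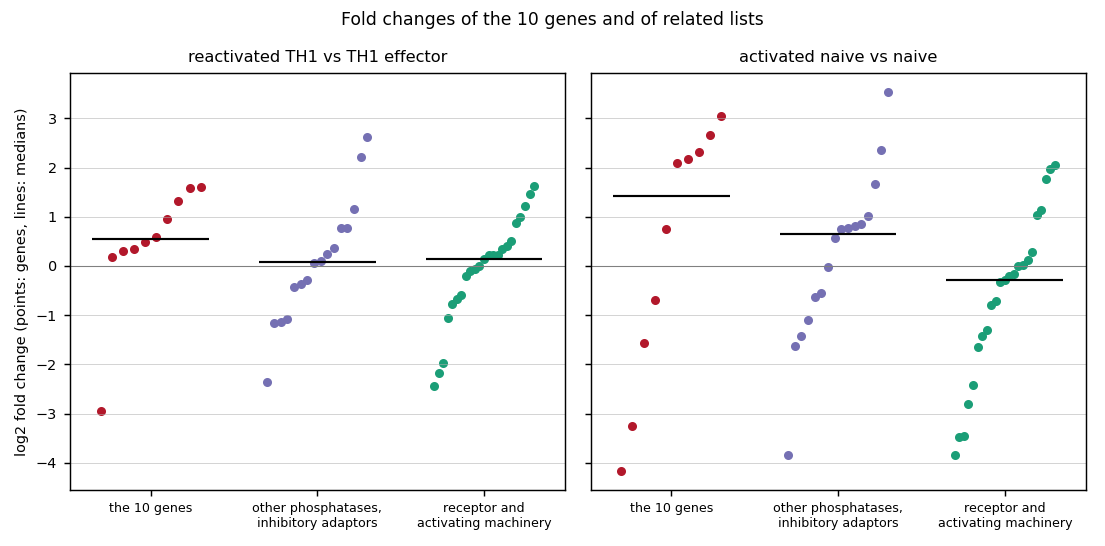
Log2 fold changes of the 10 genes, of 16 other phosphatases and inhibitory adaptors and of 23 receptor and activating genes, sorted within each list, in reactivated TH1 against TH1 effector cells (left) and activated naive against naive cells (right); lines are medians. The points of the 10 genes reach from -4.16 to 3.05 in naive activation and from -2.94 to 1.61 in TH1 reactivation, and both other lists also hold genes on both sides of 0.

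The genes most like each of the 10 were found by Pearson r of log2 CPM over all 24 libraries among 9608 genes, as a description of libraries that share 4 states. Cd5 was most like Orai1 (r = 0.990), which encodes the pore of the calcium channel opened by receptor signals, and Cd6 like Nom1 (0.994). For Ptpn22 the list held Zap70 (0.983), and for Sla it held the nuclear receptor gene Nr4a3 (0.969). Sla2 was most like Ift140 (0.993), Dgka like Slc12a7 (0.981), Cblb like Eif5 (0.974), Ubash3a like Gpn3 (0.963), Dgkz like Timp2 (0.956) and Ptpn6 like Brd7 (0.927).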

How the data were processed

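Each library was deposited as whole-number counts of reads per gene, not normalised. STAR, HTSeq, DESeq2 and the mouse build mm10 are named in the submitters' processing notes; no source used here states versions, annotation or strand setting. The kit keeps strand, per the labels' protocols. Groups came from the labels and runs from the flow cell code in each file's name. The 5 lines of reads not assigned to a gene were left out.

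Counts were analysed with edgeR 4.0.16 in R 4.3.3: filterByExpr, TMM factors and 1 robust quasi-likelihood model of all 24 libraries with group and run, with Benjamini-Hochberg adjustment over 12584 genes for each of 7 contrasts. CPM uses TMM library sizes, RPKM merged GENCODE exons (M21, mm10), and SE the spread of log2 CPM within group and run. DESeq2 1.42.0 was an alternative, beside those in the closing section. The 10 genes, the lists and the tests were chosen with earlier results of these data known. From each list up to 3 genes rising and 3 falling most, past the threshold with at least 10 CPM, were named except 1 that is not reported here, and for likeness the top 3 of 9608 genes with at least 10 CPM in a group mean. No 2 libraries of a group were alike within sampling noise. Counting error is small at this depth; Sla2 in stimulated cells has the lowest counts.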

Additional observations from a re-analysis of the deposited data

Results flagged for a closer look

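The libraries of the naive group numbered 6 for Ptpn22 (161.8 CPM) and 1 for Ptpn6 (277.6 CPM) stood farther from the other naive libraries than Dixon's 95% limit of 0.625 of the range allows for 6 values. Chance gives such a value in about 1 of 20 groups, and 64 were examined. For all 10 genes (68.0% of all genes tested) the TH1 response differed from the naive response by the test of the difference itself. Ptpn6 passed in neither run alone, and Sla did not pass in run 1 alone. On the log2 scale, TH1 minus naive, the values were -1.44 for Cd5, -0.60 for Cd6, -2.07 for Ptpn22, -0.45 for Ptpn6, 2.05 for Ubash3a, -0.76 for Sla, 1.22 for Sla2, -1.36 for Cblb, 3.59 for Dgka and 0.87 for Dgkz.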

How the results depend on the processing

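Counts of the 10 genes past the threshold stayed within 1.5 times their reported value in every comparison under each alternative run (DESeq2, RLE factors, library size alone, no filter, the replicate number as a block, no run term, each run alone, each replicate number left out, a fit of the compared groups only, and, chosen after seeing the data, without numbers 5 and 6). All 160 values of activated naive against naive cells and all 160 of reactivated TH1 against naive cells kept their direction and side of the threshold, as did 1056 of 1110 over all comparisons; the calls of single genes that ended are named beside the results. Without numbers 5 and 6 the counts were 7 of 10 in reactivated TH1 against TH1 effector cells, 4 in TH1 effector against naive cells, 8 in TH1 effector against activated naive cells and 9 for the TH1 minus the naive response. Among the other settings the lowest counts were 7 in reactivated TH1 against TH1 effector cells (library size alone and run 1 alone). In TH1 effector against naive cells the lowest was 4 (library size alone, no filter, and without number 4 or 6). In run 1 alone 8 passed against activated naive cells, both in TH1 effector and in reactivated TH1 cells. Run 1 alone also gave 8 for the TH1 minus the naive response. Library size scaling shifted the log2 fold changes of all genes by a median of -0.167 in activated naive against naive cells. In reactivated TH1 against TH1 effector cells the median shift was -0.122. Among called values of the 10 genes only Cblb in TH1 effector against naive cells changed sign, from 0.38 to -8.75e-05 without numbers 5 and 6. Direction changed also for values near 0 that had not passed. In TH1 effector against naive cells, Cd5 was -0.0419 and Sla -0.0186 without numbers 5 and 6, and Sla was -0.00926 in run 1 alone. Cd6 there was 0.0876 in run 2 alone. It was between -0.110 (without number 5) and 0.0107 (without number 1) when a number was left out. In TH1 effector against activated naive cells Ubash3a was between -0.0453 (without number 5) and 0.201 (without number 6) when a number was left out, and -0.0242 without number 1, and the Cd5 to Cd6 ratio in reactivated TH1 against TH1 effector cells was -0.00648 in run 1 alone. The cause was not tested. With the replicate block the counts were 10, 6, 10, 9, 9, 9 and 10 of 10, as without it. Same-numbered libraries had correlated deviations over 0.1 in 32 of 36 pairs and 24 of 24 libraries correlated best with their own number, a hint of pairing from the data and not from the design. Depth limits only the lowest values, Sla2 in stimulated cells.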
